A study of Mus musculus with 9 samples.

Results

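Border macrophages are the resident macrophages of the meninges and of the spaces around blood vessels, and MHC class II molecules present peptides to helper T cells. The genes described here are 6 genes used to recognize border macrophages (Mrc1, Cd163, Lyve1, Pf4, Ms4a7 and Cbr2) and 4 genes of MHC class II presentation (Cd74, H2-Aa, H2-Ab1 and H2-Eb1). They are 10 of the 33984 annotated genes in the count files. They were chosen by name, with earlier results of these data known. Each gene is represented by the transcript with the highest mean count over the 9 samples.

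Piriform cortex of wild type C57BL/6 mice was cut by laser capture from fresh-frozen sections into layers A, B and C, with 3 samples of each layer, named here A1 to C3 after the labels. The labels give an age of 8 weeks for all samples (the study's methods state an older age), no treatment, and no key that ties the letters to the numerals I to III. Nothing in the labels ties a sample to an animal, so p-values measure the spread between these samples, which may be partly technical. RNA was amplified, the libraries did not keep strand, and reads were counted per Ensembl transcript, without molecular identifiers.

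Border macrophages take up particles and lipoproteins through scavenger and mannose receptors, and they differ from microglia, the macrophages inside the tissue, in lineage markers such as Mrc1, Cd163 and Lyve1. Class II molecules are dimers of an alpha chain (H2-Aa) and a beta chain (H2-Ab1) for I-A. The H2-Eb1 beta chain belongs to I-E, whose alpha chain is not made in C57BL/6 mice. Cd74, the invariant chain, holds the new dimer in the secretory pathway until proteases such as cathepsin S (Ctss) remove it, and H2-DM then exchanges the remaining fragment for peptide. Transcription of these genes depends on the regulator Ciita and on RFX and NF-Y proteins bound to the X and Y boxes of their promoters. In resting brain, class II is found mainly on border macrophages and dendritic cells, and is low in microglia.

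Promoter windows from RefSeq on GRCm38.p6, the 250 bases before and 50 bases after the annotated start, were found for 7 of the 10 genes. Those of H2-Aa and H2-Eb1 are shown because they are the class II genes with a window, and that of Mrc1 because it is the macrophage gene with the highest counts. Capitals mark, in both H2 windows, the letters GCAAC of the X box core and ATTGG of the Y box core, and in H2-Eb1 also CCAAT, the reverse complement of ATTGG. In Mrc1 they mark ACTTCCT, the reverse complement of AGGAAGT, a motif of the kind bound by the myeloid factor PU.1. The motifs were chosen after the sequences were seen.
H2-Aa, chr17:34287774-34288073, minus strand: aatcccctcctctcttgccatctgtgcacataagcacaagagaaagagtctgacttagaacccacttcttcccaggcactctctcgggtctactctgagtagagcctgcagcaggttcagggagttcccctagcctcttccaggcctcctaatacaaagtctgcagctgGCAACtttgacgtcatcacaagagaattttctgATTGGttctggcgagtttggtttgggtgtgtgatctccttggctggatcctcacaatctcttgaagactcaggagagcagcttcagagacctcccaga
H2-Eb1, chr17:34305617-34305916, plus strand: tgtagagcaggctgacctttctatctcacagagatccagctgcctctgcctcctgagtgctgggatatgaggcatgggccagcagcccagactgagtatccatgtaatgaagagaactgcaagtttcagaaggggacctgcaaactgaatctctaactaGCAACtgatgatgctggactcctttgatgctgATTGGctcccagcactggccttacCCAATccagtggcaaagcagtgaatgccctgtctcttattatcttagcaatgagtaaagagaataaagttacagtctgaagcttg
Mrc1, chr2:14229164-14229463, plus strand: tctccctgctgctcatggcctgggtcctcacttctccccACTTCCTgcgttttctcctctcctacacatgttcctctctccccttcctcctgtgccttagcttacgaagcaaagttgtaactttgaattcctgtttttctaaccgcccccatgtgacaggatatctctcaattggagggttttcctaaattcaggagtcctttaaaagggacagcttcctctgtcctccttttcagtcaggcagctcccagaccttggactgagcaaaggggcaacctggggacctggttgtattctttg
In H2-Aa the X box core began at position -81 from the start and the Y box core at -48, a distance of 33 bases. In H2-Eb1 they began at -91 and -59, a distance of 32 bases, and the RefSeq start lies upstream of the counted transcript. Both strands of 32851 promoter windows were searched, and 35.2% held GCAAC and 37.4% held ATTGG. The pair in this order, 20 to 40 bases apart, was in 1.02% of windows and in no other window of these genes. AGGAAGT or its reverse complement was in 9.35% of windows, and among these genes in Mrc1 at -211 and in Pf4 at -10. The Mrc1 window also holds ATTGG at -80 and GCAAC at 21, left unmarked, in the opposite order and farther apart. A match describes letters only and not a bound site.

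The libraries held 23104306 to 76471683 counts, and transcripts of the mitochondrial genome took 56.4% to 72.6% of them in layer A, compared with 13.1% to 30.1% for layer B and 21.2% to 59.0% for layer C. Levels are given as normalized counts per unit of library size (CPM), with library sizes scaled by the TMM method. The 3 counts taken as the floor of detection equal 0.0748 to 0.254 normalized CPM in layer A, compared with 0.0624 to 0.0693 for layer B and 0.0256 to 0.191 for layer C. Sample B3 stood apart from B1 and B2, with a lowest correlation of log2 CPM of 0.880 against 0.978 between those samples. Such correlations were 0.894 to 0.913 within layer A and 0.905 to 0.960 within layer C. The neuronal list summed to 1041 to 1468 normalized CPM in layer A, with 2278 to 5511 for layer B and 2641 to 3440 for layer C. In such bulk samples, fewer cells of a type and less RNA per cell cannot be told apart.

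All 10 genes had reads, and all 10 had their highest mean level in layer A. The summed level of the macrophage genes was 10.4 ± 3.65 normalized CPM in layer A, compared with 1.46 ± 0.739 for layer B and 1.90 ± 1.46 for layer C (SD, n = 3 each). The summed level of the class II genes was 6.54 ± 0.242, 0.310 ± 0.152 and 0.574 ± 0.508 in the same order. These are low levels, and reads over the floor of 3 counts were found in all 3 layer A samples for Mrc1, Cd163, Lyve1 and the 4 class II genes only. Pf4 exceeded it in 4 of the 9 samples, Cbr2 in 3 and Ms4a7 in A3 alone.

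Mrc1 encodes the mannose receptor CD206, a receptor for glycoproteins, and lies on chromosome 2 from 14229392 to 14332057. Its level was 6.01, 4.14 and 5.26 normalized CPM in A1, A2 and A3, 0.225, 0.162 and 0.562 in B1, B2 and B3, and 0.344, 1.85 and 0.715 in C1, C2 and C3. Every layer A sample was above every other sample, and the highest of the other layers was C2, with 29 counts. Cd163 encodes the scavenger receptor for haptoglobin-bound haemoglobin (chromosome 6, 124304656 to 124330527). It measured 0.762, 1.00 and 2.34 normalized CPM in A1 to A3, 0.494, 0.600 and 0.645 in B1 to B3 and 0.0491, 0.829 and 0.187 in C1 to C3. A1 lay below C2, and the layer B samples were closer together than those of either other layer. The files also hold another Cd163 transcript with the same counts, so its reads cannot be assigned to 1 isoform.

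Lyve1 encodes a hyaluronan receptor shared by border macrophages and lymphatic endothelium (chromosome 7, 110850607 to 110863239). It measured 2.54, 1.40 and 4.66 normalized CPM in A1, A2 and A3, 0.314, 0.139 and 0.833 in layer B and 0.0981, 0.829 and 0.383 in layer C. Layer A stood above both other layers, which overlapped each other. A list of 4 lymphatic genes was highest in layer A too, with sums of 11.9 to 21.3 normalized CPM. The sums were 2.20 to 3.65 in layer B and 3.95 to 5.12 in layer C. In the tests described below, 3 of these genes passed against layer B and 2 against layer C. Flt4 and Pdpn, both also made outside lymphatic vessels, measured 2.63 ± 0.804 and 8.26 ± 2.69 in layer A (SD, n = 3). Ccl21a had no count in any sample. The part of lymphatic vessels in the level of Lyve1 was not tested.

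The remaining macrophage genes had few reads. Pf4 encodes platelet factor 4, a chemokine of platelets and border macrophages (chromosome 5, 90772435 to 90773383), and had 1, 3 and 45 counts in A1 to A3, 0, 2 and 7 in B1 to B3 and 5, 0 and 16 in C1 to C3. Cbr2, a carbonyl reductase (chromosome 11, 120729489 to 120732114), had 1, 5 and 20 counts in A1 to A3, 2, 0 and 3 in B1 to B3 and 2, 0 and 9 in C1 to C3. Ms4a7, a membrane protein of the MS4A family (chromosome 19, 11321505 to 11336146), had 0, 3 and 21 counts in A1 to A3, 1, 1 and 3 in B1 to B3 and 0, 0 and 2 in C1 to C3. For all 3 of these genes, A3 held most of the layer A reads. The Ms4a7 transcript with the most reads is annotated as a retained intron, so its value may include unspliced RNA. The platelet gene Ppbp had 17, 9 and 27 counts in A1 to A3, none in B1 to B3 and 1, 0 and 26 in C1 to C3. The list of 5 platelet genes that holds Ppbp did not follow it. Its mean sums were 26.95, 37.23 and 24.97 normalized CPM in layers A, B and C, most of it from Gp1bb. The part of platelet RNA in the level of Pf4 was not tested.

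Cd74 lies on chromosome 18 from 60803848 to 60812646 and overlaps the microRNA gene Mir5107 over 12 bases of exon. It measured 3.47, 3.67 and 2.17 normalized CPM in A1, A2 and A3, 0.0225, 0.346 and 0.0833 in layer B and 0.810, 0.0638 and 0.238 in layer C. The lowest layer A sample was A3, which held the highest level of most macrophage genes. H2-Aa (chromosome 17, 34282744 to 34287823) measured 0.847, 2.20 and 1.99 normalized CPM in A1 to A3, 0.0674, 0.0231 and 0.0833 in B1 to B3 and 0.270, 0 and 0.102 in C1 to C3. No layer A sample overlapped another layer for either gene, and among the other layers C1 was highest for both.

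H2-Ab1 (chromosome 17, 34263209 to 34269419) had 16, 5 and 42 counts in A1 to A3, 0, 0 and 5 in B1 to B3 and 0, 0 and 8 in C1 to C3. H2-Eb1 (chromosome 17, 34306017 to 34316199) had 8, 9 and 50 counts in A1 to A3, 3, 4 and 2 in B1 to B3 and 0, 0 and 20 in C1 to C3. As normalized CPM, layer A ranged from 0.334 to 1.35 for H2-Ab1 and from 0.601 to 1.25 for H2-Eb1, above every sample of layers B and C. Class II genes resemble each other in sequence, and how reads that match several of them were counted is not stated.

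**Figure D1:**
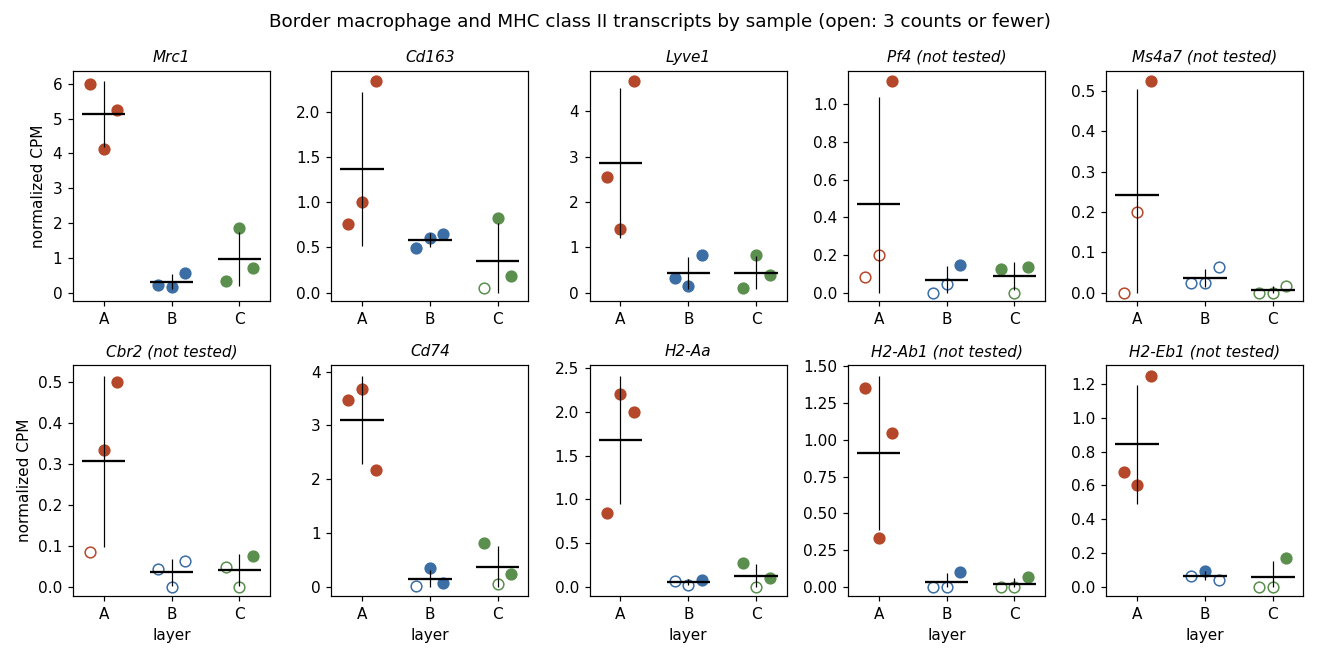
Normalized CPM (y axis, a scale of its own for each gene) of the 10 genes in the 3 samples of layers A, B and C; points are samples, open where the count was 3 or fewer, horizontal bars are means and vertical lines are SD (n = 3), drawn no lower than 0. Layer A samples sit above all others for Mrc1 (4.14 to 6.01), Lyve1 and the 4 class II genes, while Cd163, Pf4 and Ms4a7 overlap between layers.

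Per length of transcript (RPKM, normalized CPM per kilobase), Cd74 had the highest mean level in layer A, 2.20 ± 0.579, followed by H2-Aa with 1.49 ± 0.648, Lyve1 with 0.992 ± 0.572 and Mrc1 with 0.956 ± 0.175 (SD, n = 3). Pf4, H2-Ab1 and H2-Eb1 came next, with mean RPKM levels of 0.798, 0.752 and 0.719. Cd163 (0.311), Cbr2 (0.275) and Ms4a7 (0.0669) closed the order. Each gene overlapped its neighbour in the order over the 3 samples, so that adjacent places are not distinguished. In layer B, Lyve1 (0.148) and Cd163 (0.132) had the highest mean RPKM levels, and in layer C Cd74 (0.263) and Mrc1 (0.18), again with overlap.

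The first comparison asked which of these genes differ between layers A and B. Mrc1, Lyve1, Cd74 and H2-Aa were higher in layer A and none was lower. In edgeR's quasi-likelihood test, 5 of the 10 genes had enough reads to be tested (10 counts or more in 3 samples or more), and 4 of these 5 had an adjusted p-value under 0.05. Over the 56416 transcripts tested, 16.5% passed in either direction and 10.7% were higher in layer A. The genes were chosen with earlier results of these data known, so these shares are given as a description. H2-Aa reached 10 counts outside layer A in C1 and C3 alone, so its layer A reads carried it through the filter. The median log2 fold change of the 5 tested genes, H2-Aa included, was 4.0, against -0.12 for all transcripts. The 3 tested macrophage genes, none of which needed its layer A reads to pass the filter, had a median of 2.75.

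For Mrc1 the log2 fold change of layer A over layer B came to 4.0 (standard error of 0.644, adjusted p = 0.000905 in edgeR, Benjamini-Hochberg adjustment), a 16.0-fold higher level. The differences of Cd74 and H2-Aa were 4.34 (standard error 0.849, adjusted p = 0.0030) and 4.79 (standard error 0.855, adjusted p = 0.0017) in the same edgeR test. Mrc1 and Cd74 passed in each of 17 alternative analyses. With a sample left out in turn, the log2 fold changes ranged from 3.72 to 4.76 for Mrc1, from 3.89 to 5.80 for Cd74 (5.80 without B2) and from 4.47 to 5.19 for H2-Aa. Lyve1 had a log2 fold change of 2.75 (with a standard error of 0.747, adjusted p = 0.0196 in edgeR), and this call was lost without A3 (adjusted p = 0.103), without B1 (0.0674) or without B2 (0.0633). Cd163 had 1.28 (standard error 0.734, adjusted p = 0.274) and did not pass, with a log2 fold change of 0.63 without A3. Without B3, the sample that stood apart, the log2 fold changes were 4.76 for Mrc1, 3.71 for Lyve1, 4.11 for Cd74 and 5.19 for H2-Aa, and all 4 passed (largest adjusted p = 0.0041 in edgeR).

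The layer A samples all exceeded those of layer B for 8 of the 10 genes, all but Pf4 and Ms4a7. Of the tested transcripts 17.2% showed the same, a share that applies to Mrc1, Cd163, Lyve1, Cd74 and H2-Aa only. Cbr2, H2-Ab1 and H2-Eb1 were not tested, and Cbr2 had 1 count in A1, under the floor, against 3 in B3. Among the untested genes, pooled counts scaled by library size gave ratios of layer A to layer B of 25.6 for H2-Ab1 (95% counting interval 10.4 to 81.5), 15.1 for H2-Eb1 (7.51 to 34.5), 11.1 for Pf4 (5.38 to 25.6), 10.6 for Cbr2 (3.99 to 35.2) and 9.75 for Ms4a7 (3.65 to 32.7). These intervals cover counting error only and not the spread between samples. When edgeR was run without a filter, H2-Ab1 (adjusted p = 0.0047) and H2-Eb1 (adjusted p = 0.0097) also passed, and Pf4, Ms4a7 and Cbr2 did not (0.0700, 0.133 and 0.0786). In that fit 13.6% of 79414 transcripts passed.

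The second comparison set layer A against layer C. Mrc1, Lyve1, Cd74 and H2-Aa were again higher in layer A. These were 4 of the 5 tested genes, where 11.3% of all tested transcripts passed and 6.98% were higher in layer A. The log2 fold changes were 2.49 for Mrc1 (standard error 0.604, adjusted p = 0.0163 in edgeR), 2.86 for Lyve1 (0.771, adjusted p = 0.0265), 2.97 for Cd74 (0.784, adjusted p = 0.0240) and 3.60 for H2-Aa (0.791, adjusted p = 0.0104). Cd163 had 2.23 (standard error 0.798, adjusted p = 0.0884 in edgeR). The median over the 5 tested genes, H2-Aa included, was 2.86, against -0.01 for all transcripts. That of the 3 tested macrophage genes was 2.49. This comparison uses the same layer A samples as the one with layer B and is not independent of it.

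Several of these calls were lost when a single sample, and with it part of the replication, was left out. The share of all transcripts that passed was not computed for these fits. Without A1 or without C3, H2-Aa, which entered the test through its layer A reads, was the only gene that passed, and without C1 only Cd74 and H2-Aa did. Mrc1 lost its call without A1, C1 or C3 (adjusted p = 0.0609 to 0.0967 in edgeR), Lyve1 without A1, A3, C1 or C3 (0.0655 to 0.131) and Cd74 without A1, A2, C2 or C3 (0.0738 to 0.0837). The differences themselves stayed near their values in several of these fits, with 2.37 for Mrc1 without A1, 2.89 and 2.84 for Cd74 without A1 and A2, and 2.94 and 2.82 for Lyve1 without A1 and C3. Those that moved most were 3.24 for Mrc1 and 3.49 for Lyve1 without C2, 4.07 for Cd74 and 4.45 for H2-Aa without C1, and 1.54 and 1.62 for Cd163 without A3 and C1. Cd163 passed without C2 (log2 fold change 3.42, adjusted p = 0.0249 in edgeR), without B3 (adjusted p = 0.0475) and in DESeq2 (adjusted p = 0.0365), where 16.1% of transcripts passed.

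The layer A samples all exceeded those of layer C for 7 of the 10 genes, all but Cd163, Pf4 and Ms4a7. Of the tested transcripts 17.0% showed the same, a share that applies to Mrc1, Lyve1, Cd74 and H2-Aa only. Cbr2, H2-Ab1 and H2-Eb1 were not tested, and Cbr2 had 0.0847 normalized CPM in A1 (1 count) against 0.0767 in C3. Pooled ratios of layer A to layer C were 20.5 for H2-Ab1 (95% counting interval 9.78 to 49.5), 8.71 for H2-Eb1 (5.22 to 15.2), 6.14 for Cbr2 (2.93 to 13.8) and 6.06 for Pf4 (3.57 to 10.6). Ms4a7 had 24 counts in layer A and 2 in layer C, a ratio of 31.2 (7.74 to 272). Without a filter, edgeR also called H2-Ab1 (adjusted p = 0.0078), H2-Eb1 (0.0218) and Ms4a7 (0.0415), in a fit where 9.06% of transcripts passed. With counts summed over the transcripts of a gene, 8 of the 10 genes could be tested, and 6 passed against layer B (21.6% of all genes did) and 6 against layer C (15.9%). Cbr2 was among them against layer B, Ms4a7 against layer C, and H2-Ab1 in both. The 5 Ms4a7 transcripts had 15 to 21 counts each in A3 and 3 each in A2, so a sum may hold the same read more than once. The calls of Cbr2, Ms4a7 and H2-Ab1 with summed counts may thus rest on repeated reads. When the 3 layers were tested together, Mrc1, Lyve1, Cd74 and H2-Aa passed, as did 14.3% of transcripts, and without a filter 7 of the 10 genes did, where 12.2% of transcripts passed.

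**Figure D2:**
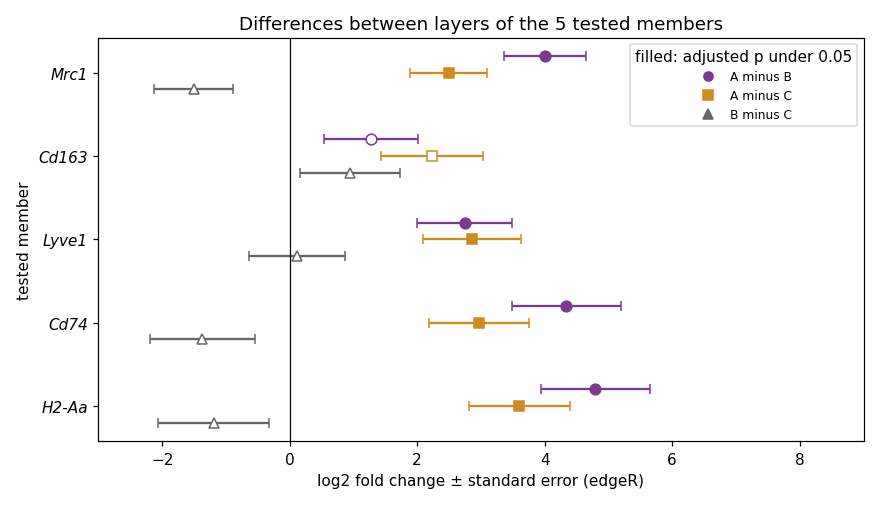
Log2 fold changes (x axis) with standard errors for the 5 tested genes (y axis) from edgeR; circles are layer A minus B, squares A minus C, triangles B minus C, and filled symbols have an adjusted p under 0.05. H2-Aa, which passed the filter through its layer A reads, shows the largest difference from layer B (4.79), where it had 3, 1 and 4 counts. Cd163 has no filled symbol, and no B minus C symbol is filled.

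Between layers B and C no gene passed, as for all other transcripts in edgeR (0.0%). In the fit of all samples Mrc1 had the largest difference, at -1.51 on the log2 scale (layer B minus layer C, standard error 0.622, unadjusted p = 0.0279, adjusted p = 0.9999 in edgeR), and was the only one of the 5 tested genes with an unadjusted p under 0.05, where 4.11% of transcripts had one. Cd74 and H2-Aa had log2 fold changes of -1.37 (standard error 0.825) and -1.19 (0.874). Cd163 and Lyve1 had values of 0.95 (standard error 0.786) and 0.11 (0.756), and that of Lyve1 turned to -0.82 without B3 and to -0.43 without C1. DESeq2 called none of the 5 (0.261% of its transcripts passed), with 1 unadjusted p under 0.05 where 4.77% of transcripts had one. The sizes and their order depended on single samples. Without B2 the log2 fold change was -2.81 for Cd74 and -1.23 for Mrc1, and without B3 that of Mrc1 was -2.23. Without C2 it was -0.76 for Mrc1 and 2.14 for Cd163, and without C1 it was -0.32 for Cd74, -0.38 for H2-Aa and 0.31 for Cd163.

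The macrophage and class II genes did not rank the samples of a layer alike. In layer A, 5 of the 6 macrophage genes were highest in A3, all but Mrc1, while the summed class II level was even (6.35, 6.81 and 6.46 normalized CPM in A1, A2 and A3). The macrophage sum was 9.48, 7.28 and 14.4 in these samples. A3 also had the highest level of 8 of 10 meningeal fibroblast genes and the lowest level of 6 of 11 microglia genes. In layer B all 6 macrophage genes were highest in B3, which was highest for 10 of 10 meningeal and 9 of 11 microglia genes as well. In layer C the macrophage sum was highest in C2 (0.663, 3.51 and 1.52 in C1, C2 and C3), where the class II sum was lowest (1.08, 0.0638 and 0.579). C2 held 29 reads of Mrc1 and 1 read of the 4 class II genes together, and its mitochondrial share of 59.0% was the highest of layer C. The part of meningeal or microglial RNA in these levels was not tested.

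The make-up of the sums is given as a description, without a test. Mrc1 supplied 49.4% of the mean macrophage sum in layer A, compared with 21.6% for layer B and 51.1% for layer C, and Cd163 13.2%, 39.7% and 18.7%. The share of Lyve1 lay between 23.0% and 29.3% in the 3 layers. Among class II genes, Cd74 supplied 47.5%, 48.5% and 64.6% of the mean sum in layers A, B and C. These shares are of CPM that are not scaled by length, and in layers B and C they rest on few reads.

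Microglia genes were higher in layer A as well, with sums of 126 to 183 normalized CPM against 19.7 to 53.8 for layer B and 44.4 to 60.5 in layer C, and the sums were therefore also expressed relative to them. The macrophage sum was 5.18%, 4.01% and 11.5% of the microglia sum in A1, A2 and A3, 5.59%, 4.46% and 4.29% in layer B and 1.49%, 7.13% and 2.51% in layer C. On this scale the 3 layers overlapped. The class II sum was 3.47%, 3.76% and 5.14% of the microglia sum in A1 to A3, 0.798%, 2.13% and 0.580% in B1 to B3 and 2.43%, 0.130% and 0.957% in C1 to C3. Here every layer A sample remained above every other sample. Relative to 10 meningeal fibroblast genes, which summed to 76.7 to 191 normalized CPM in layer A and to 1.80 to 10.5 elsewhere, the macrophage sum was lowest in layer A (7.27% to 9.49%, against 22.0% to 54.4% in layer B and 11.2% to 46.6% in layer C). The class II sum was 4.87%, 8.89% and 3.38% of the meningeal sum in A1 to A3, with 25.6% in B2 and 18.3% in C1, and 3.72%, 4.89% and 4.52% of the endothelial sum, with 3.91% in B2 and 5.51% in C1. On the meningeal and endothelial scales the layers overlapped for class II. Relative to 12 pan-myeloid genes the class II sum was 5.20%, 5.98% and 6.79% in A1 to A3 and at most 3.24% elsewhere (C1). The macrophage sum overlapped on that scale, with 6.39% in A2 and 9.70% in C2.

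**Figure D3:**
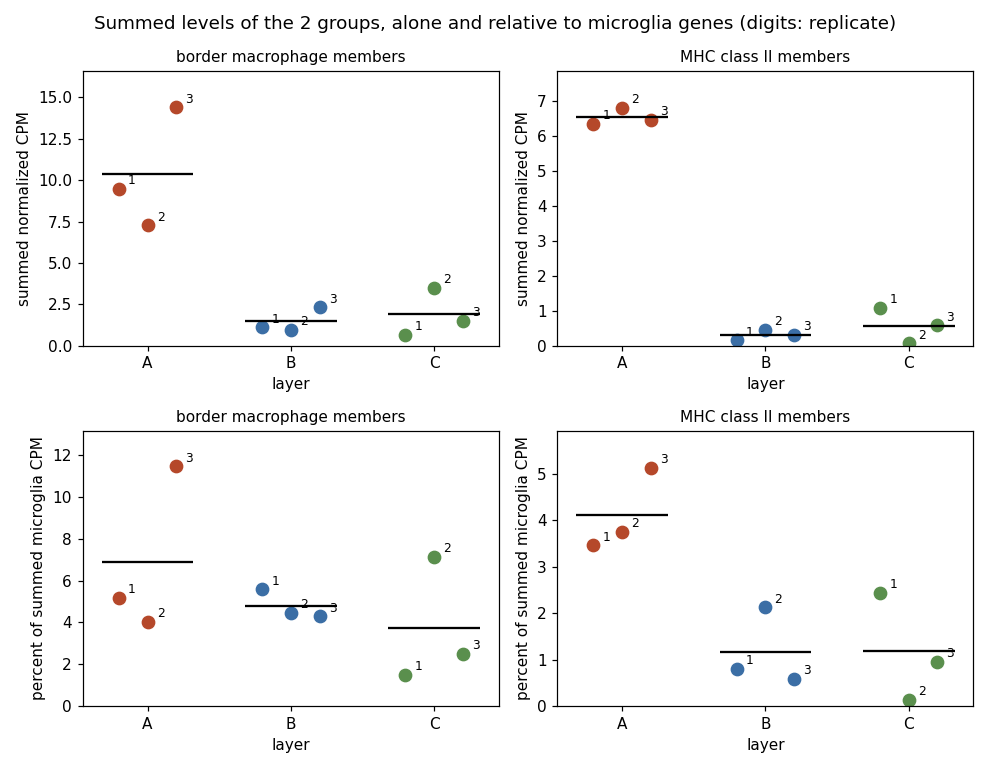
Summed normalized CPM (upper row, y axis) of the 6 macrophage genes (left) and the 4 class II genes (right) by layer, and the same sums as a percent of the summed microglia genes (lower row); points are samples with their replicate number and bars are means. Layer A is above the other layers in both upper panels and for class II in the lower right panel (3.47% to 5.14%), while the macrophage shares overlap.

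Of 16 other genes of border macrophages, 8 had enough reads to be tested. Of these, 7 were higher in layer A against layer B, with a median log2 difference of 3.52, and 5 were higher against layer C, with a median of 2.56. F13a1 and Tgfbi, counted among them, passed the filter on low counts only through their layer A reads, and of the other 6 genes 5 and 3 were higher, with medians of 3.25 and 2.08. Dab2, an adaptor of receptor uptake, had log2 fold changes of 4.22 (adjusted p = 0.00023 in edgeR) and 3.11 (adjusted p = 0.0025), and Stab1, the scavenger receptor stabilin-1, had 3.09 (adjusted p = 0.0013) and 2.09 (adjusted p = 0.0173). The transcription factor Maf and the iron exporter Slc40a1 were higher than in layer B (2.00 and 3.41, adjusted p = 0.0045 and 0.0042 in edgeR) and did not pass against layer C (adjusted p = 0.0642 and 0.0588). Cd36, a fatty acid receptor also made by other cells, was the tested gene that did not pass in either comparison.

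Most of the machinery around class II did not pass in either comparison. Of 16 pathway genes 10 were tested, and Ctss alone passed, with 24.7 ± 9.77, 5.14 ± 4.41 and 6.49 ± 2.21 normalized CPM in layers A, B and C (SD, n = 3). Its log2 fold change was 2.26 against layer B (adjusted p = 0.0088 in edgeR) and 1.92 against layer C (adjusted p = 0.0280). The medians of the 10 were 0.00 and 0.10, close to those of all transcripts. Ciita, the regulator of class II transcription, had 0.408 ± 0.243, 0.429 ± 0.332 and 0.334 ± 0.319 normalized CPM in layers A, B and C, and its log2 fold change against layer B was -0.06 (standard error 0.840). The ubiquitin ligase March1, which removes class II from the surface, had -0.88 (adjusted p = 0.0915 in edgeR), the lysosomal protease Lgmn 0.06 and the X box factor Rfx5 0.48. H2-DMa had -0.98 (adjusted p = 0.220 in edgeR). H2-Ea-ps and H2-Eb2 had no count in any sample.

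Class I genes, which present peptides to killer T cells and are made by most cells, were higher in layer A in part. Of 8 tested genes, 4 were higher than in layer B and 2 higher than in layer C, with medians of 1.84 and 2.06. Psmb8, Psmb9, Tap1 and Tap2 were tested only through their layer A reads. Of the other 4 genes 3 and 2 were higher, with medians of 1.84 and 1.82. The log2 fold changes against layer B were 1.81 for B2m, the light chain (adjusted p = 0.0368 in edgeR), 2.39 for H2-K1 (0.0132) and 1.87 for H2-D1 (0.0264). Tapbp had 0.93 and did not pass (adjusted p = 0.225). Of 11 tested genes of macrophage growth factor and interferon signalling, 4 were higher in layer A and 1 lower when set against layer B, and 3 were higher and 1 lower against layer C. The receptor Csf1r, needed by macrophages and microglia, had a log2 fold change of 2.06 against layer B (adjusted p = 0.00094 in edgeR). Jak1 and Jak2 had -0.32 and 0.09 and did not pass. Ifngr2, a chain of the interferon gamma receptor, was lower in layer A (-1.01, adjusted p = 0.0424, and -1.13 against layer C, adjusted p = 0.0334). The other chain, Ifngr1, was higher in layer A (1.98, adjusted p = 0.0030 in edgeR, and 1.59 against layer C, adjusted p = 0.0161). No gene of any of these lists passed between layers B and C.

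Other cell types that could carry the same transcripts were followed by marker lists. All 11 microglia genes and 9 of 12 pan-myeloid genes exceeded layer B in layer A, and 9 and 6 exceeded layer C. The microglia genes P2ry12, Cx3cr1 and Tmem119 had log2 fold changes of 2.73, 2.27 and 2.61 against layer B. All 10 meningeal fibroblast genes were higher in layer A in both comparisons, with medians of 5.20 and 4.39. Of them, 4 (Col1a1, Col3a1, Ogn and Slc6a13) entered the test only through their layer A reads, and the other 6 had medians of 4.56 and 4.13. The growth factor Igf2 led the list in abundance (log2 fold changes 4.97 and 4.31). Of 9 endothelial genes 8 and 7 were higher, with sums of 139 to 171 normalized CPM in layer A, compared with 10.3 to 26.1 for layer B and 19.6 to 34.3 for layer C, and all 5 astrocyte genes were higher in both. Of 3 tested lymphatic genes 3 and 2 were higher, and of 5 oligodendrocyte genes 1 and 0. Of 7 neuron genes 4 were lower in layer A against layer B and 3 against layer C, while Gad2, of inhibitory neurons, was higher against layer B (1.91, adjusted p = 0.0094 in edgeR). None of the 3 tested dendritic cell genes passed, Ccr7 had no count, and Cd209a had 10, 7 and 22 counts in A1 to A3, 0 in B1 to B3 and 0, 0 and 2 in C1 to C3. The B and T cell list summed to at most 0.775 normalized CPM in any sample, with Ms4a1 and Cd3g at 0 throughout, and the monocyte and neutrophil list to at most 0.274, with Ly6c2 and Ly6g at 0. Of 4 tested platelet genes Ppbp, which entered the test through its layer A reads, was higher in layer A when set against layer B, and of 3 tested erythrocyte genes Hbb-bt was. Of 4 choroid plexus genes 1 was tested and did not pass, and the list summed to at most 1.61. The part of these cell types in the levels of the macrophage and class II genes was not tested.

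**Figure D4:**
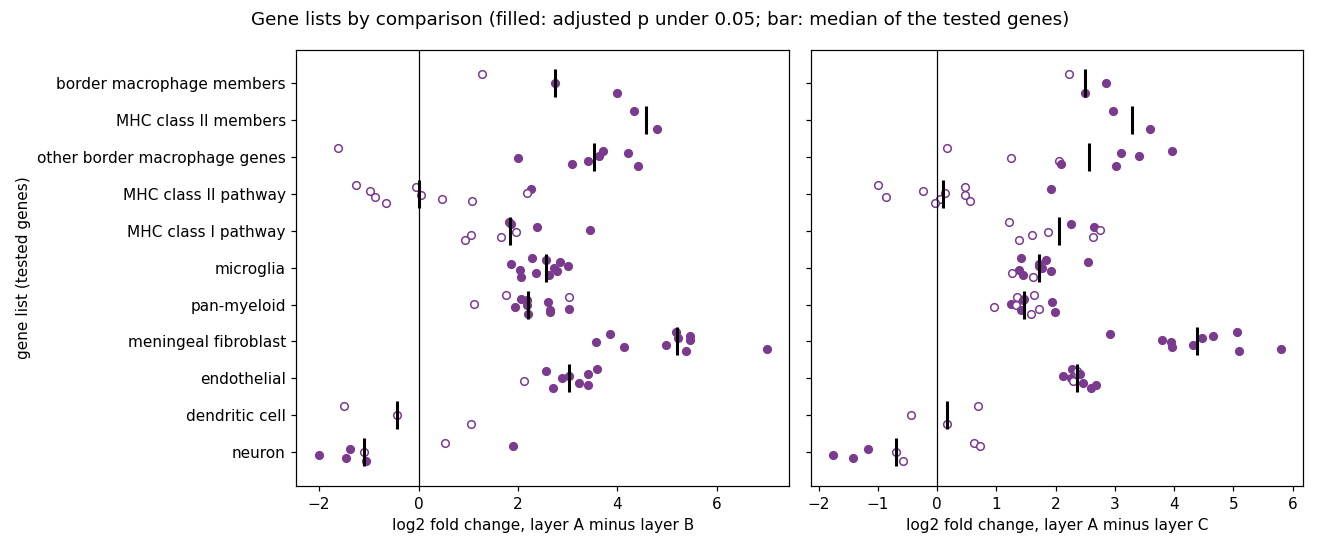
Log2 fold changes of the tested genes of each list (y axis) for layer A minus layer B (left) and layer A minus layer C (right) on the x axis; points are genes, filled where the adjusted p was under 0.05, and bars are medians of the tested genes. Meningeal fibroblast genes have the highest median against layer B (5.20). It was 4.56 for the 6 of them that did not need their layer A reads to be tested. The class II pathway genes centre on 0.00, and the neuron genes lie mostly below 0.

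By the smallest root mean square difference of centred log2 levels over the 9 samples (CPM plus a pseudocount of 0.1), the genes most like the summed macrophage level were Col8a1 (0.340), Gpx8 (0.342), Thbd (0.345), Osmr (0.406) and Jag1 (0.408), against a median of 1.53 over 15171 genes. Those most like the summed class II level were Col4a5 (0.425), Paqr5 (0.435), Lrp4 (0.472), Aox3 (0.503) and Gm20412 (0.547), with a median of 2.09. Each of these 10 genes had its highest mean level in layer A, which follows from choosing them by likeness to sums that are highest there.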

How the data were processed

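The authors aligned the paired-end reads to mm10 using Bowtie. For each of the 9 samples they deposited raw counts by Ensembl transcript, which were not normalized. The submitters' processing notes also name bcl2fastq 1.8.4 and HTSeq 0.5.3, without their settings. The authors' own comparisons were not used.

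Of 95533 transcripts, 82807 (86.7%) were found in the GENCODE annotation of GRCm38, the assembly of mm10. Transcripts that reached 10 counts in 3 or more samples (56416) were scaled by TMM and fitted with all 9 samples in edgeR 4.0.16 (R 4.3.3), with layer as the only term. Quasi-likelihood F-tests were adjusted by the Benjamini-Hochberg method over all tested transcripts, with a threshold of 0.05. Standard errors were obtained from the log2 fold change and the F statistic. Alternatives were DESeq2 1.42.0, RLE factors, no filter, a stricter filter, a replicate block, only the layers compared, gene sums, 1 transcript per gene, no mitochondrial transcripts, and each sample left out in turn. The scripts were tested on simulated counts.

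Total counts were 23104306 to 76471683 per sample. The genes and the lists were chosen with earlier results of these data known. Every one of the 10 genes is named, and of each list its 4 most abundant genes at most, plus any that passed against the list's direction; further genes were named after their values were seen.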

Additional observations from a re-analysis of the deposited data

How the results depend on the processing

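Between layers A and B, 4 of the 5 tested genes passed in the main analysis, and 3 to 4 passed with each sample left out in turn. Between layers A and C the number was 4, and it ranged from 1 to 5 with a sample left out (1 without A1, 2 without C1 and 1 without C3). Without a filter on low counts it was 7 of 10 for layers A and C and 7 of 10 for any difference among the 3 layers, where 3 to 5 passed with a sample left out. Between layers B and C it was 0 throughout. Lyve1 reversed between layers B and C, to -0.82 without B3 and -0.43 without C1, and ranged from -0.82 to 0.74 with a sample left out. Of the alternatives for single genes, 235 kept direction and side of the threshold, 14 lost and 3 gained a call, and 2 reversed. Of those for numbers of genes, 62 stayed within 1.5 times and 5 did not. A filter asking 10 counts or more of every sample left none of the 10 genes to test. With the replicate block, 4, 4, 0 and 4 genes passed for A and B, A and C, B and C and any difference. The share of all transcripts that passed was not computed for the block fit or with a sample left out. The numbers of genes in those fits therefore stand without that share. The 9 pairs of same-numbered samples had correlations of deviations from -0.186 to 0.243, and 4 were over 0.1, so the numbers were not taken as pairing. The cause of these changes was not tested. Pf4, Ms4a7, Cbr2, H2-Ab1 and H2-Eb1 had too few reads to be tested with the filter.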

Other observations

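Among the lists, several genes chosen after their values were seen followed the macrophage genes. F13a1, the transglutaminase subunit of coagulation factor XIII made by border macrophages, measured 1.69, 2.14 and 2.59 normalized CPM in layer A and 0.0624 to 0.359 in all other samples. Outside layer A it reached 10 counts in B1 and C3 alone, so that its layer A reads carried it through the filter. Colec12, a scavenger receptor also made by vessel cells, measured 7.79, 3.81 and 6.66 in layer A and at most 0.630 elsewhere. Irf8, a transcription factor of myeloid cells, measured 1.78, 2.87 and 2.54 in layer A and at most 0.928 elsewhere (log2 fold changes 3.47 and 2.25, adjusted p = 0.0021 and 0.0251 in edgeR).

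Clec9a, a receptor of cross-presenting dendritic cells named after its values were seen, had 0.898 normalized CPM in A3, 0.169 in A1 and 0 in A2, and at most 0.0924 elsewhere. It was not tested because too few samples reached 10 counts. None of the 3 dendritic cell genes that were tested passed in either comparison. Their median log2 fold changes were -0.42 against layer B and 0.16 against layer C.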
